A study of Homo sapiens with 15 samples.

Results

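The 103 genes described here encode the subunits of oxidative phosphorylation. They were chosen by symbol among the 57272 genes of the count table. Of these genes, 90 lie in the nuclear genome (38 of complex I, 4 of complex II, 10 of complex III, 19 of complex IV and 19 of complex V) and 13 in the mitochondrial genome (7 of complex I, 1 of complex III, 3 of complex IV and 2 of complex V). No measured value entered this rule, but it was set with earlier results of these data known. RNA was sequenced from MRC-5, a human fibroblast cell line established from fetal lung and grown here at 5% oxygen, in 15 libraries that form 5 conditions of 3 replicates. Young cells at population doubling (PD) 30 carried the empty lentiviral vector pWPIR-GFP with a control siRNA (young empty), the TRF2 vector pWPIR-GFP-TRF2 with the control siRNA (young TRF2), or the empty vector with an siRNA against LMNB1 (young siLMNB1). Senescent cells were infected with the empty or the TRF2 vector at a pre-senescent stage, received the control siRNA after growth had reached its plateau, and are called senescent empty and senescent TRF2. The authors report that senescent TRF2 cells stopped dividing at a later PD than senescent empty cells. Senescent TRF2 cells also carried their vector for longer than young TRF2 cells. TRF2 in senescent cells therefore cannot be told apart from PD, nor a differing effect of TRF2 between the states from its length of exposure. All libraries therefore come from virus-infected, siRNA-transfected cells of a single fibroblast line, and siLMNB1 was applied to young cells only. The labels mark the 6 senescent libraries as a reanalysis of earlier data and the 9 young libraries not, so deposit and cell state cannot be told apart. The labels do not say whether the replicates of a condition were separate cultures, so the p-values measure the spread between these libraries, which may be technical.

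Oxidative phosphorylation couples the oxidation of NADH and succinate to the synthesis of ATP at the mitochondrial inner membrane. Electrons pass from complex I (NADH dehydrogenase) or complex II (succinate dehydrogenase) through ubiquinone to complex III (the cytochrome bc1 complex), then through cytochrome c to complex IV (cytochrome c oxidase), and the proton gradient built on the way drives complex V (ATP synthase). Complex II is encoded by nuclear genes alone, whereas the other complexes combine subunits of both genomes. The mitochondrial genes are transcribed as long polycistronic RNAs from a heavy and a light strand and are cut at the tRNAs between them, and MT-ND6 is the only subunit gene read from the light strand.

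Between 26725885 and 43116046 reads were counted per library. The 13 mitochondrial members took 1.30 to 3.79% of the counts of a library and the 90 nuclear members 0.596 to 0.831%. The targeted genes followed their labels: LMNB1 lay at 53.9 to 60.98 CPM (counts scaled to an equal library size) in the 6 young libraries without siLMNB1, at 2.36 to 2.91 CPM with siLMNB1 and at 2.68 to 5.65 CPM in the senescent ones, and TERF2, the gene of TRF2, at 128 to 307 CPM with the TRF2 vector and 21.9 to 25.98 CPM without it. Markers of fibroblasts, such as collagens and THY1, summed to 24009 to 40827 CPM in all libraries. Markers of striated muscle summed to at most 0.127 CPM. Markers of endothelial cells summed to 2.79 to 4.15 CPM in the senescent empty libraries, above the 1.49 to 2.57 CPM of all others. Among them VWF was called higher in senescent against young empty cells (1.84) and lower with TRF2 in senescent cells (-0.81), the directions of most mitochondrial members, and KDR, the other one tested, was called in neither (-0.64 and -1.33). Markers of epithelial cells summed to 0.114 to 0.928 CPM outside young empty replicate 1, which had 11.7 CPM, and EPCAM was called higher with siLMNB1 (1.53). Markers of blood cells summed to at most 0.279 CPM in young and 1.44 to 3.50 CPM in senescent libraries, mostly through CD14, and the part of such transcripts in the results was not tested. The slope of log2 level on the GC content of a gene's transcript, per 10 percentage points and relative to the mean of the young empty libraries, ran from -0.01 to 0.15 in the 9 young libraries and from 0.43 to 0.78 in the 6 senescent ones. Senescent empty replicate 3 stood apart at 0.78, with a slope of -0.31 per doubling of gene length. Counts of members called are given also without it, as are named members whose call then changed. Counts by complex or gene list, the relation to GC content, NDUFA3 and NDUFB10 are given only with it.

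The promoters of nuclear subunit genes are known for sites of NRF1, of ETS factors such as GABPA and of YY1, which drive respiratory genes in many tissues. RefSeq promoters (GRCh38.p14), from 250 bases before to 50 after the start, were matched by symbol to 70 of the 90 nuclear members. The NRF1 letters GCATGCGC stood on either strand in 13 of these 70 windows (18.6%) and in 3.27% of all 27305 promoters. The ETS letters CCGGAAG stood in 20 (28.6%, against 10.7% of all), the YY1 letters AAGATGGC in 11 (15.7%, against 3.03%) and the letters GGGCGG of a GC box in 42 (60%, against 44.6%). CCAAT stood in 34.3% of the members and 35.7% of all promoters, and TATAAA in 10% and 11.9%. The median GC content of the windows was 61.2% for the members and 58.3% for all promoters. A match is a description of letters and no proof of binding. The 250 bases before the start of COX5B (a subunit of complex IV, chr2:97645812-97646061, plus strand), SDHB (the iron-sulfur subunit of complex II, chr1:17054033-17054282, minus strand) and ATP5F1C (the rotating gamma subunit of complex V, chr10:7787927-7788176, plus strand) are shown as members with several such letters that overlap no other gene. Each is printed 5′ to 3′ on the strand of the gene, with the NRF1 and ETS letters in capitals, and the capitals of ATP5F1C hold 2 overlapping NRF1 matches.
COX5B: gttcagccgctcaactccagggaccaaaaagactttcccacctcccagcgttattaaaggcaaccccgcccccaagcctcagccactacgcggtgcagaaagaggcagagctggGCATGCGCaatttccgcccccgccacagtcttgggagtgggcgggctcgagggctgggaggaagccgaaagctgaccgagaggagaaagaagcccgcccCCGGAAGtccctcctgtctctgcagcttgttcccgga
SDHB: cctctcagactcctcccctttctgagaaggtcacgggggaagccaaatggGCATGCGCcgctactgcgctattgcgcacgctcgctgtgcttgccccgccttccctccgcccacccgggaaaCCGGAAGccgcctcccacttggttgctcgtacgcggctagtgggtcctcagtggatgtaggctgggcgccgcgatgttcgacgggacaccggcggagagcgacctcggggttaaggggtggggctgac
ATP5F1C: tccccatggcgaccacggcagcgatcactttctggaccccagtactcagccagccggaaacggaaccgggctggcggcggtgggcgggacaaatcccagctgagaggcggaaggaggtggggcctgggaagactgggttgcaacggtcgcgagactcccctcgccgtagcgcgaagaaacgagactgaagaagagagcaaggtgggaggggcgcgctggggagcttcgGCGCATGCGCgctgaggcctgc

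Most mitochondrial members stood above the nuclear ones in level per length. In young empty cells the mean CPM per kb of exon was 3621 for MT-CO1, 3368 for MT-CO3 and 2712 for MT-CO2, the 3 mitochondrial subunits of complex IV. It was 1344 for MT-ATP6 (the proton channel subunit a of ATP synthase), 1345 for MT-ND3, 1223 for MT-ND4, 661 for MT-CYB (cytochrome b), 522 for MT-ND1, 454 for MT-ND6, 442 for MT-ND2, 383 for MT-ND4L and 318 for MT-ND5. MT-ATP8, a small subunit of ATP synthase, came last of the 13 at 6.84 CPM per kb. The nuclear members with the highest level per length were NDUFS5 at 410.2, ATP5F1B (the catalytic beta subunit of ATP synthase) at 366 and UQCRH (the hinge protein of complex III) at 144 CPM per kb. The length is that of all annotated exons, including those of rare transcripts, so genes with many annotated exons are understated. The counting kept reads that fell on a single gene, and the mitochondrial genes partly overlap. MT-ATP8 (chrM:8366-8572) shares 46 bases, 22.2% of its length, with MT-ATP6 (chrM:8527-9207), and MT-ND4L (chrM:10470-10766) shares 7 bases with MT-ND4 (chrM:10760-12137). The level of MT-ATP8 is uncertain for this reason. Nuclear chromosomes also hold near-identical copies of mitochondrial sequence, with which any mitochondrial member can share reads. Both overlaps are shown on the heavy-strand transcript of GRCh38, 5′ to 3′, as chrM:8515-8584 and chrM:10748-10778, with the shared bases, which begin with the start codon of the downstream gene, in capitals.
MT-ATP8 and MT-ATP6: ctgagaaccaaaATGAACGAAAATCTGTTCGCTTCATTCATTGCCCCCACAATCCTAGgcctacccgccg
MT-ND4L and MT-ND4: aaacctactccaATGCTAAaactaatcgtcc

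Senescent cells with the empty vector were compared with young cells with the same vector to ask how subunit expression differed at the end of the replicative lifespan. Of the 13 mitochondrial members, 11 rose and none fell by the quasi-likelihood test of edgeR, Benjamini-Hochberg adjusted over the 15799 genes tested (adjusted p below 0.05, and none fell at an unadjusted p below 0.05 or by DESeq2). Of all genes tested, 64.7% were called in this comparison, 32.7% up and 31.9% down. The median log2 fold change was 1.14 over the 13 mitochondrial members and 0.02 over all genes. With a fold threshold of 1 on the log2 scale in addition, which defines a differentially expressed gene (DEG), 8 mitochondrial members were called, and 28.5% of all genes. In bulk RNA, a change in the share of cells of one kind and a change in the RNA of each cell cannot be told apart.

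The largest rise was that of MT-ND6 (chrM:14149-14673, minus strand), the complex I subunit of the light strand. MT-ND6 lay at 188, 188 and 339 CPM in the young empty libraries and at 633, 1365 and 1384 CPM in the senescent empty libraries. Its lowest senescent library stood above its highest young one, and the log2 fold change was 2.24, SE 0.26, adjusted p = 1.46e-06. MT-ND5, a proton-pumping subunit of complex I, lay at 489, 466 and 775 CPM in young and 1192, 2695 and 1193 CPM in senescent cells (1.55, SE 0.26, adjusted p = 6.14e-05). Of these senescent libraries, replicate 2 was far above the other two, which lay close together. MT-ND4, another proton-pumping subunit, lay at 1396, 1373 and 2287 CPM in young and 2242, 4948 and 4497 CPM in senescent cells (1.21, SE 0.23, adjusted p = 2.93e-04), and senescent replicate 1 stood just below young replicate 3.

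The subunits of complex IV had smaller fold changes than these 3 genes. MT-CO1, which holds the oxygen-reducing centre, lay at 4424, 4823 and 7505 CPM in young and 7535, 13141 and 10519.5 CPM in senescent cells (0.90, SE 0.20, adjusted p = 0.00108). MT-CO2, which takes electrons from cytochrome c, lay at 1586, 1538 and 2440.3 CPM and 1948, 3799 and 4262 CPM (0.85, SE 0.22, adjusted p = 0.00308). MT-CO3, the third core subunit, lay at 2213, 2401 and 3308 CPM and 1880.2, 3386 and 3543 CPM, and its difference was not called (0.15, SE 0.21, adjusted p = 0.531). Every senescent library exceeded every young one for MT-CO1, by a narrow margin between senescent replicate 1 and young replicate 3, whereas senescent replicate 1 lay below young replicate 3 for MT-CO2 and below all young libraries for MT-CO3.

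MT-CYB, the mitochondrial subunit of complex III, rose from 625, 642 and 993 CPM to 1054, 2158 and 2014 CPM (1.21, SE 0.22, adjusted p = 1.78e-04) without overlap. MT-ATP6 rose from 771, 732 and 1244 CPM to 1081, 2282 and 2405 CPM (1.07, SE 0.23, adjusted p = 7.97e-04), with senescent replicate 1 below young replicate 3. MT-ND3 moved least among the members that were called, from 448, 437 and 511 CPM to 552, 768 and 811 CPM (0.61), and its libraries did not overlap. The remaining complex I genes MT-ND1 (log2 fold change 1.23) and MT-ND2 (1.14) were called with overlapping libraries. MT-ATP8 was called at 1.61 on levels of 0.697 to 2.34 CPM in young and 2.23 to 7.52 CPM in senescent cells. MT-ND4L, at 105, 84.7 and 152 CPM in young and 129, 306 and 106 CPM in senescent cells, was not called (0.66, SE 0.31, adjusted p = 0.0732). The senescent empty libraries lay wholly above the young ones for 5 mitochondrial members (MT-ND3, MT-ND5, MT-ND6, MT-CYB and MT-CO1), as for 31.9% of all genes. Leaving out a single library gave 10 to 13 calls, with 13 without senescent empty replicate 1, and MT-ATP8 was the only call lost, without young empty replicate 1 or 2 or senescent empty replicate 3. MT-CO3 was called in addition without senescent empty replicate 1, and MT-ND4L without young empty replicate 3 or senescent empty replicate 1 or 3, with the offsets (0.88) or without the filter on low counts.

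**Figure D1:**
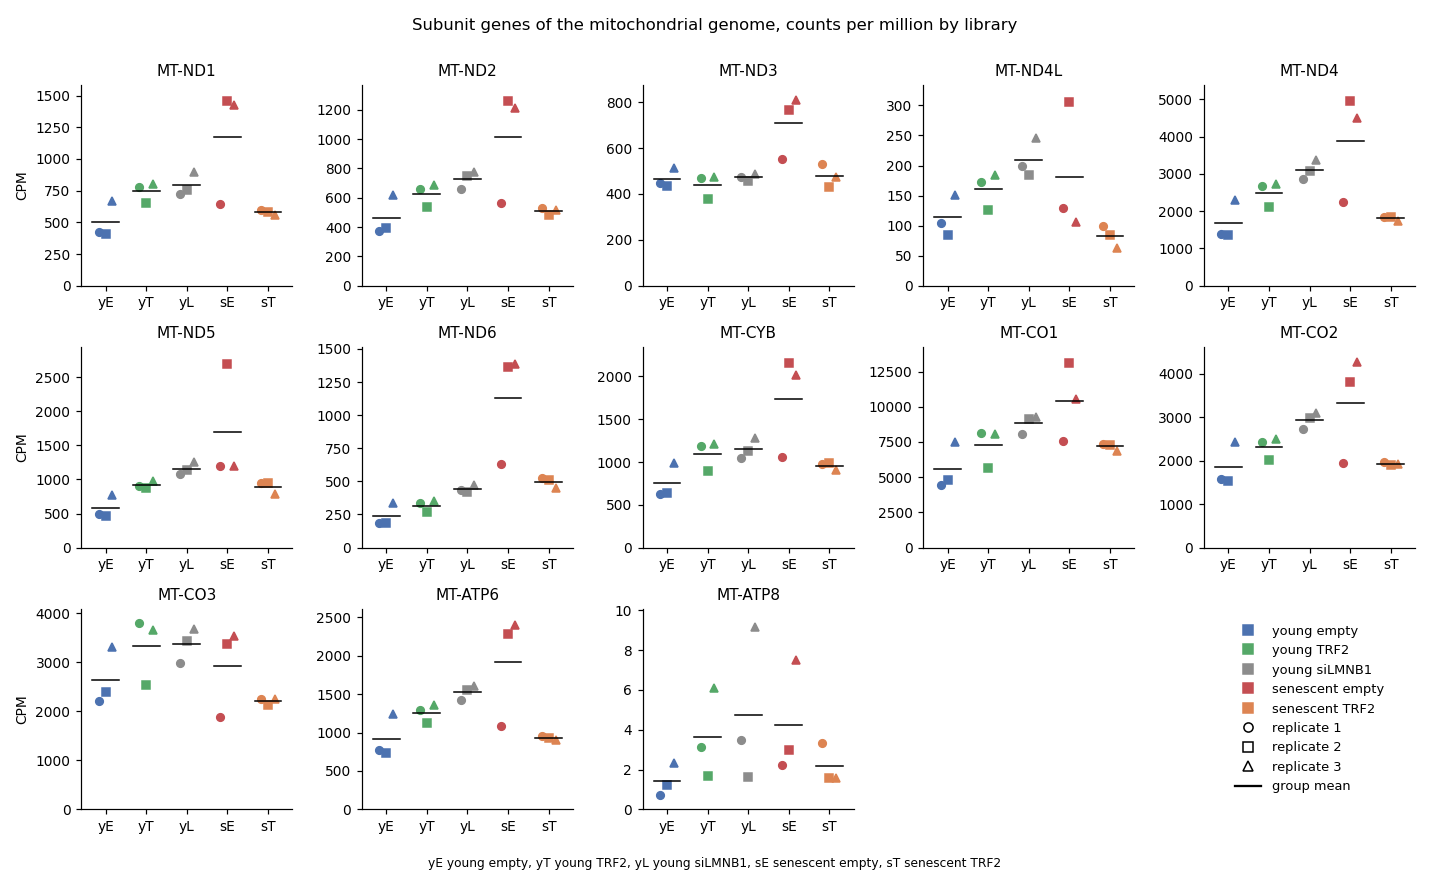
Level in CPM (vertical axes, each starting at 0) of the 13 mitochondrial members in each of the 15 libraries (points, with shape for the replicate and colour for the condition) and the mean of each condition (bars). In most panels senescent empty replicate 1 sits with the young libraries and replicates 2 and 3 far above them, and the senescent TRF2 libraries lie close together.

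The balance among the members was also compared. MT-ND6 made up 1.39 to 1.63% of the summed CPM of the mitochondrial members in young empty, 1.46 to 1.55% in young TRF2, 1.67 to 1.93% in young siLMNB1, 3.26 to 4.14% in senescent empty and 2.59 to 2.82% in senescent TRF2 libraries. All 6 senescent libraries stood above all 9 young ones. The ratio of MT-CO3 to MT-CO2 was 1.36 to 1.56 in young empty, 1.26 to 1.56 in young TRF2, 1.10 to 1.19 in young siLMNB1, 0.831 to 0.965 in senescent empty and 1.12 to 1.16 in senescent TRF2 cells. The senescent empty libraries were the lowest, and the siLMNB1 and senescent TRF2 libraries lay between them and the others. The summed CPM of the mitochondrial members over that of the nuclear members was 1.74 to 2.77 in young empty, 2.64 to 3.10 in young TRF2, 3.30 to 3.72 in young siLMNB1, 3.12 to 6.37 in senescent empty and 2.78 to 2.99 in senescent TRF2 cells, with senescent empty replicate 2 the highest. These shares and ratios are given as descriptions without a test.

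**Figure D2:**
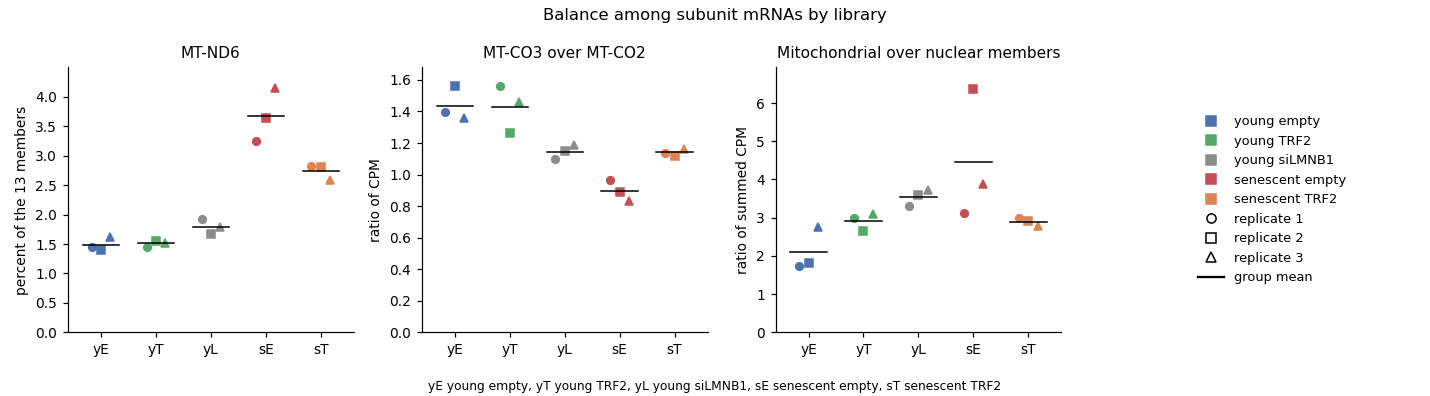
From left to right, MT-ND6 as a percent of the summed CPM of the 13 mitochondrial members, the ratio of MT-CO3 to MT-CO2 in CPM, and the summed CPM of the mitochondrial over the nuclear members, for each library (points, with shape for the replicate) and as the mean of each condition (bars). The MT-ND6 share lies at 1.39 to 1.93% in the young and 2.59 to 4.14% in the senescent libraries, without overlap.

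The mitochondrial rRNAs MT-RNR1 and MT-RNR2, which come from the same heavy-strand transcript, were not called in this comparison (log2 fold changes -0.02 and 0.04, adjusted p = 0.904 and 0.85 by edgeR), and 1 of the 2 was called higher with the offsets. The mitochondrial mRNAs over the rRNAs, in summed CPM, came to 3.87 to 4.77 in young empty, 4.58 to 4.98 in young TRF2, 6.23 to 6.75 in young siLMNB1, 6.61 to 9.18 in senescent empty and 6.02 to 6.15 in senescent TRF2 libraries. MT-ND6 mRNA is known to lack a poly(A) tail, and rRNA is depleted or left out by most library kits. How RNA was selected for these libraries and which strand setting the counting used are not given in the sources used here. A count without regard to strand would take heavy-strand RNA across MT-ND6 as MT-ND6. The part of RNA selection or strand setting in the level and share of MT-ND6, and in the ratio to rRNA, was not tested.

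Senescent cells were compared with young cells also in the presence of the TRF2 vector. Of the 13 mitochondrial members, 1 rose and 2 fell by edgeR's quasi-likelihood test, where 58.3% of all genes were called, 28.2% up and 30.1% down. The median over the 13 was -0.30, against -0.02 for all genes. MT-ND6 was the member that rose, from 333, 266 and 349 CPM in young TRF2 to 525, 508 and 452 CPM in senescent TRF2 cells (0.65, SE 0.25, adjusted p = 0.0351). The members that fell were MT-ND4L, from 172, 126 and 184 CPM to 98.7, 84.8 and 63.6 CPM (-0.97, SE 0.31, adjusted p = 0.0148), and MT-CO3, from 3806, 2532 and 3662 CPM to 2244, 2129 and 2246 CPM (-0.60, SE 0.21, adjusted p = 0.0211). The senescent TRF2 libraries of MT-ND6 all lay above and those of MT-ND4L and MT-CO3 all below the young TRF2 ones. The shares of all genes without overlap in this comparison are not given. Without the filter on low counts 1 rose and 8 fell, with only the libraries compared 1 rose and 7 fell, and with offsets for GC and length 2 rose and 0 fell. The call of MT-ND6 ended without young TRF2 replicate 1 or 2 or senescent TRF2 replicate 1 or 2. The call of MT-CO3 ended without young TRF2 replicate 1 or 3 or senescent TRF2 replicate 2, and that of MT-ND4L without young or senescent TRF2 replicate 3, so that 1 or 2 members were called whichever of the 6 libraries was left out. The rRNAs fell in this comparison (-0.53 for MT-RNR1 and -0.57 for MT-RNR2), but neither was called with the offsets.

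Young cells with siLMNB1 were compared with young cells with the control siRNA to ask how loss of lamin B1, which also falls in senescent cells, affected expression. Here 11 of the 13 mitochondrial members rose and none fell by edgeR's quasi-likelihood test (none at an unadjusted p below 0.05 and none by DESeq2, which called 9), while 32.5% of all genes were called, 16.4% up and 16.1% down. MT-ND5 lay at 1075, 1137 and 1260.1 CPM with siLMNB1 (1.00, SE 0.25, adjusted p = 0.00605), MT-ND4 at 2873, 3069 and 3368 CPM (0.88, SE 0.23, adjusted p = 0.00838) and MT-ND6 at 437, 419 and 473 CPM (0.89, SE 0.25, adjusted p = 0.0119). For these 3 genes every siLMNB1 library stood above every young empty library, whose values are given above. The siLMNB1 libraries lay wholly above the young empty ones for 10 mitochondrial members, as for 29.5% of all genes. The members that were not called were MT-ND3 (log2 fold change 0.02) and MT-CO3 (0.35, called without the filter or with only the libraries compared), and the other 8 members that rose lay between 0.62 for MT-CYB and 1.79 for MT-ATP8. The rRNAs were not called (-0.25 and 0.10). The count depended on single libraries: 2 members were called without young empty replicate 1 or without replicate 2, 11 without replicate 3, and 3 to 6 without a siLMNB1 library. This comparison shares its control libraries with the comparison of senescent and young empty cells.

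TRF2 was compared with the empty vector within each state. In young cells no mitochondrial member was called by edgeR's quasi-likelihood test, 4 rose at an unadjusted p below 0.05, DESeq2 called 0, and 0.177% of all genes were called. Without the filter on low counts 10 of the 13 were called higher, and with only the libraries compared 2 were called higher. MT-ND5 lay at 903, 880.0 and 983 CPM in young TRF2 cells (log2 fold change 0.68, adjusted p = 0.367). All 3 libraries stood above the young empty ones, and the share of all genes that did so is not given. In senescent cells 10 of the 13 members fell with TRF2 and none rose by the same test, at an unadjusted p below 0.05 or by DESeq2, while 11.3% of all genes were called and 6.41% were called down. MT-ND6 had a log2 fold change of -1.19 (SE 0.25, adjusted p = 0.00717), MT-ND4 of -1.11, MT-ATP6 of -1.05, MT-ND3 of -0.57 and MT-ND1 of -1.02. MT-ND4 lay at 1852, 1837 and 1737 CPM in the senescent TRF2 libraries, each below every senescent empty library. The TRF2 libraries lay wholly below the senescent empty ones for 10 members, as for 13.9% of all genes. The members not called were MT-CO1 (-0.53), MT-CO3 (-0.41) and MT-ATP8 (-0.99). With only the 6 senescent libraries in the fit no member was called, and with all conditions 3 to 12 were called when a library was left out, 4 without senescent empty replicate 2 and 6, 3 and 5 without senescent TRF2 replicates 1, 2 and 3.

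The interaction term tested whether the difference between senescent and young cells itself differed between the vectors. It was negative for all 13 mitochondrial members and called for 7 by edgeR's quasi-likelihood test (MT-ND1, MT-ND2, MT-ND4, MT-ND5, MT-ND6, MT-CYB and MT-ATP6), at -1.68 to -1.41 on the log2 scale, while 1.13% of all genes were called and 0.956% were called down. MT-ND4 had the smallest adjusted p (-1.68, SE 0.33, adjusted p = 0.0282). The value combines a mean level that was higher with TRF2 in young cells, at 2499.6 ± 341 against 1685 ± 521 CPM (mean ± SD, n = 3), with one that was lower with TRF2 in senescent cells, at 1809 ± 62.2 against 3896 ± 1449 CPM. No member was called with only the 12 libraries compared in the fit, or without any 1 of the senescent TRF2 libraries, of young TRF2 replicates 1 and 3 and of young empty replicates 1 and 2. A single member was called without senescent empty replicate 2 or young TRF2 replicate 2, and 12 without senescent empty replicate 1.

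Among nuclear members, 81 of 90 passed the filter on low counts and were tested. In senescent against young empty cells 17 rose and 25 fell by edgeR's quasi-likelihood test, 42 of 81 in all, where 64.7% of all genes were called (32.7% up and 31.9% down). The median log2 fold change was -0.05, against 0.02 for all genes. By complex, 11 of 35 tested members of complex I rose and 6 fell, 3 of 4 of complex II fell, 2 of 10 of complex III rose and 5 fell, 2 of 15 of complex IV rose and 4 fell, and 2 of 17 of complex V rose and 7 fell. With the fold threshold in addition, 6 nuclear members rose and 3 fell. Without senescent empty replicate 3 the split was 9 up and 40 down, and with offsets for GC and length it was 25 up and 14 down.

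**Figure D3:**
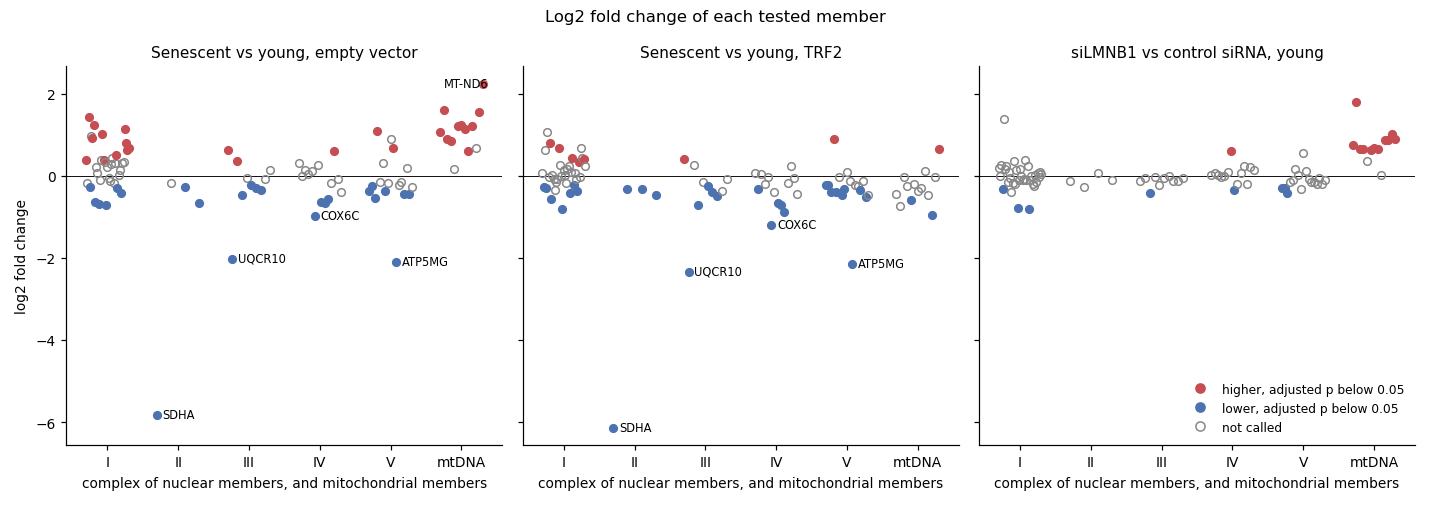
Log2 fold change (vertical axis) of each tested member by complex of the nuclear members, and of the mitochondrial members (mtDNA), in 3 comparisons. Filled points were called by edgeR (adjusted p below 0.05), open points were not, and COX6B2, which rests on few reads, is left out. The mitochondrial members stand above 0 in the left and right panels, and SDHA, UQCR10 and ATP5MG lie far below the other nuclear members in both comparisons of senescent with young cells.

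In complex I the largest rise was that of NDUFA11, an accessory subunit, on levels of only 0.837 to 1.49 CPM in young and 1.75 to 5.48 CPM in senescent cells (log2 fold change 1.44). NDUFA3 and NDUFB10, accessory subunits at higher levels that were chosen after their values were seen, rose from 24.5, 23.3 and 24.8 to 43.1, 48 and 78.5 CPM (1.23) and from 58.6, 53.6 and 53.3 to 89.2, 88.04 and 155 CPM (1.01). The senescent libraries lay above the young ones for both genes, with replicate 3 far the highest. NDUFV1, the core subunit that oxidises NADH, rose from 75.5, 77.05 and 70.4 to 92.96, 89.6 and 161 CPM (0.62, SE 0.16, adjusted p = 0.00259). NDUFS1, the large iron-sulfur core subunit, fell from 147, 142 and 146 to 125, 124 and 103 CPM (-0.31, SE 0.08, adjusted p = 0.00344). The largest fall in the complex was that of NDUFB3, an accessory subunit, from 56.5, 53.7 and 54.2 to 30.3, 28.4 and 41.4 CPM (-0.72, SE 0.12, adjusted p = 5.63e-05). With the offsets neither NDUFV1 nor NDUFS1 nor NDUFB3 was called (-0.01, 0.10 and -0.06), but each kept its call when any 1 of the 6 libraries was left out. The counts of NDUFA11 are uncertain, since it shares 12.1% of its exon bases with other genes.

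In complex II, SDHA, the flavoprotein that oxidises succinate, fell from 127, 127 and 122 CPM in young empty to 1.82, 2.67 and 2.07 CPM in senescent empty cells (-5.84, SE 0.14, adjusted p = 9.39e-15). It lay at 120.3, 122 and 122 CPM in young TRF2, 111, 116 and 117 CPM in young siLMNB1 and 1.75, 2.10 and 1.34 CPM in senescent TRF2 libraries, so the 9 young and the 6 senescent libraries were far apart. SDHB, the iron-sulfur subunit, was not called (61.1, 65.7 and 61.4 CPM in young and 48.1, 51.4 and 66.5 CPM in senescent cells, -0.18, SE 0.12, adjusted p = 0.178). The membrane anchors SDHC and SDHD, which hold the ubiquinone site, fell from 154, 151 and 148 to 125, 120.2 and 132 CPM (-0.27, SE 0.08, adjusted p = 0.0117) and from 45.8, 48.6 and 47.4 to 31.1, 29.9 and 28.1 CPM (-0.67, SE 0.09, adjusted p = 7.57e-06). By these counts SDHA fell far more than the other subunits of its complex. SDHA shares 21.7% of its exon bases with a protein-coding gene numbered above every gene in the count table. The part of this sharing in its fall was not tested. SDHB was called lower without senescent empty replicate 3 (-0.36).

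In complex III, CYC1, which carries the heme of cytochrome c1, rose from 110.3, 105 and 109.9 to 142, 140.0 and 219 CPM (0.62, SE 0.14, adjusted p = 8.17e-04). UQCRFS1, the Rieske iron-sulfur protein, fell from 95.5, 95.8 and 89.8 to 69.98, 69.9 and 88.4 CPM (-0.30, SE 0.09, adjusted p = 0.01), and UQCRC1, a core protein, was not called (249.6, 257 and 259 CPM in young and 203, 205 and 328 CPM in senescent cells) but was called lower without senescent empty replicate 3 (-0.34). With the offsets CYC1 was called lower in place of higher (-0.26, adjusted p = 0.00145 by edgeR), UQCRC1 was called lower (-0.57), and UQCRFS1 was no longer called (0.09). UQCR10, a small accessory subunit, fell most, from 66.1, 67.4 and 68.8 to 14.1, 13.2 and 22.2 CPM (-2.03, SE 0.16, adjusted p = 1.48e-08). UQCRHL at 2.23 to 3.47 CPM is a near copy of UQCRH, and reads shared by them are uncertain.

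In complex IV, COX6C fell most, from 99.4, 96.7 and 105 to 47.7, 46.96 and 57.9 CPM (-0.98, SE 0.09, adjusted p = 1.25e-07), followed by COX7A2L, known for joining complexes III and IV into supercomplexes, from 149.6, 154 and 158 to 91.4, 93.5 and 106 CPM (-0.67, SE 0.09, adjusted p = 7.41e-06), and COX7A2, the broadly expressed isoform of its subunit, from 169.7, 161 and 167 to 94.9, 87.6 and 135 CPM (-0.65, SE 0.12, adjusted p = 2.43e-04). The largest rise was that of COX6B2, an isoform detected on few reads. In complex V, ATP5F1A and ATP5F1B, the alpha and beta subunits of the catalytic head, fell from 555, 541 and 543 to 407, 367 and 486 CPM (-0.38, SE 0.09, adjusted p = 0.0017) and from 827, 811 and 817 to 659.9, 626 and 769 CPM (-0.26, SE 0.08, adjusted p = 0.0127). ATP5F1D, the delta subunit of the central stalk, rose most, from 67.5, 62.3 and 63.4 to 118, 105 and 186 CPM (1.08, SE 0.17, adjusted p = 3.25e-05). ATP5MG, the membrane subunit g, fell most, from 50.5, 50.1 and 51.8 to 11.1, 10.9 and 13.6 CPM (-2.09, SE 0.12, adjusted p = 2.45e-10).

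SDHA, UQCR10, ATP5MG and COX6C had no overlap between the 9 young and the 6 senescent libraries. How many of all genes were separated in this way was not counted. SDHD and COX7A2L were also lower in every senescent empty than in every young empty library, and the share of all genes that were so is not given. Each of the 4 genes shares exons with a gene of GENCODE 44 whose Ensembl number lies above that of every gene in the count table. Of the 8 tested nuclear members that overlap such a later gene, these 4 fell in senescent against young empty cells, 1 rose and 3 were not called. SDHA (chr5:218303-257082, plus strand) shares 21.7% of its exon bases with a protein-coding gene on the same strand, UQCR10 (chr22:29767369-29770413, plus strand) 24.5% and COX6C 11.8% with a long noncoding RNA on the opposite strand, and ATP5MG (chr11:118401346-118433278, plus strand) 3.3% with a protein-coding gene on the same strand. Over all genes tested, 645 shared at least 10% of their exon bases with such a later gene, a set without ATP5MG. Of these 645, 27.9% were DEGs that fell in senescent empty against young empty cells, 28.1% with TRF2 and 5.58% with siLMNB1. Of the 14325 genes that shared no base with a later gene the shares were 10.9%, 11.3% and 8.13%. DEGs that rose in the same comparisons made up 17.5%, 10.2% and 10.4% of the 645 and 16.8%, 12.1% and 10.1% of the 14325. Which annotation release and strand setting produced the counts is not given in the sources used here, the counting keeps a read only where it falls on a single gene, and the part of exon sharing in these 4 falls was not tested. Without all genes that overlap a later gene, 16 nuclear members rose and 21 fell.

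**Figure D4:**
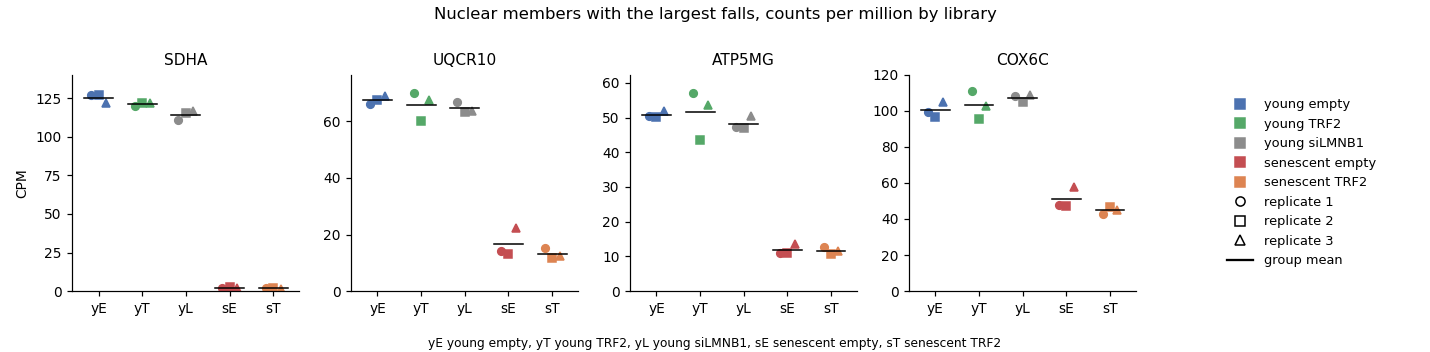
Level in CPM (vertical axes, each starting at 0) of SDHA, UQCR10, ATP5MG and COX6C in each library (points, with shape for the replicate and colour for the condition) and the mean of each condition (bars). The 9 young libraries lie together and the 6 senescent libraries far below them for all 4 genes, with SDHA at 1.34 to 2.67 CPM in the senescent ones.

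The log2 fold changes of the 81 nuclear members between senescent and young empty cells followed the GC content of their transcripts, with Pearson's r of 0.43 across genes, and r of 0.66 across the 73 members without a later overlapping gene. Across all 15760 genes with a known GC content r was 0.34. Genes are not independent replicates, and all of them share the same 6 libraries. Of the 27 members with the lowest GC content (34.1 to 43.9%) none rose and 16 fell, of the middle 27 (44.1 to 49.8%) 4 rose and 7 fell, and of the 27 with the highest (50.6 to 64.9%) 13 rose and 2 fell. All genes were not counted in these ranges, so the split cannot be taken as particular to the members. The ends of this range are NDUFB7 (chr19:14566078-14572066, minus strand) with 64.9% and NDUFA5 (chr7:123536997-123557904, minus strand) with 34.1%, both accessory subunits of complex I. The first 120 coding bases of their canonical transcripts in GRCh38 are shown with G and C in capitals.
NDUFB7: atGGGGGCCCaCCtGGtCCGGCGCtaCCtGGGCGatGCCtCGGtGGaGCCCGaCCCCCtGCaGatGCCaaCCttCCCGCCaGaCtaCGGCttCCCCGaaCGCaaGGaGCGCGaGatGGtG
NDUFA5: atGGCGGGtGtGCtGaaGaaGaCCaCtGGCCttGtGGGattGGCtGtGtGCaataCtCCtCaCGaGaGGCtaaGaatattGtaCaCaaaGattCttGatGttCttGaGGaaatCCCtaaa
NDUFB7 was not called (0.28) and NDUFA5 fell from 57.1, 57.5 and 58.9 to 40.6, 38.04 and 32.6 CPM (-0.64). With offsets for GC content and length r was -0.09 across the 81 members. Across the 73 without a later overlapping gene it was -0.23, so their relation to GC content turned in sign and was not removed. With the offsets NDUFA5 came to 0.09, NDUFB10 to 0.39 and ATP5F1D to 0.23. SDHA (-5.89), UQCR10 (-1.93), ATP5MG (-1.59) and COX6C (-0.42) remained called lower. The mitochondrial members, with GC contents of 39.6 to 47.7%, kept their direction with the offsets in this comparison, and 12 were called higher (MT-ND6 at 2.53). Whether the relation to GC content came from the cells or from the libraries was not tested.

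**Figure D5:**
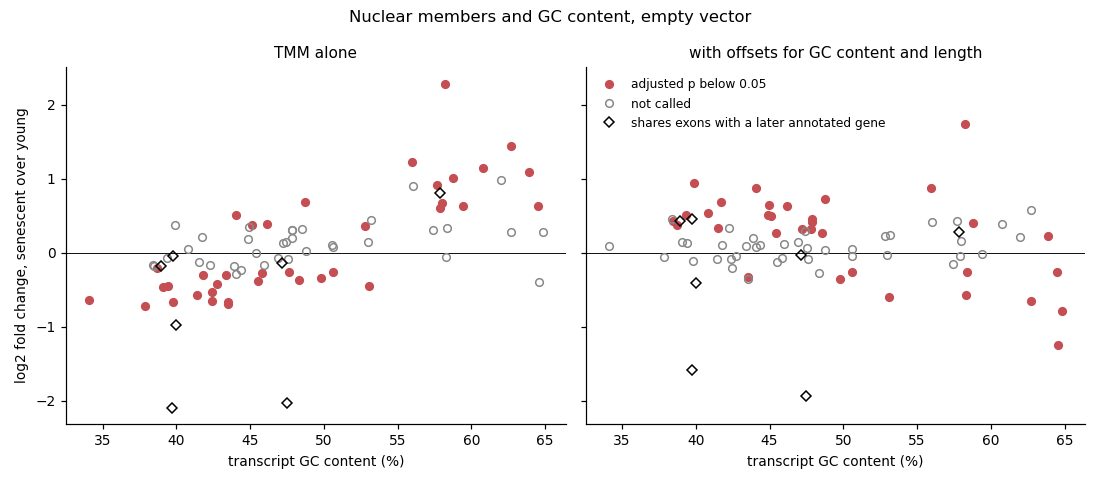
Log2 fold change of senescent over young empty cells (vertical axis) against transcript GC content in percent (horizontal axis) for the nuclear members, with TMM normalization alone (left) and with offsets for GC content and length (right). Filled points were called, open circles were not, diamonds mark members that share exons with a later annotated gene whether called or not, and SDHA is left out for scale. The upward trend on the left (r = 0.43 over all 81 members, SDHA included) is absent on the right (r = -0.09). Over the 73 members without a later overlapping gene r is 0.66 on the left and -0.23 on the right.

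With TRF2, 8 nuclear members rose and 30 fell in senescent against young cells by edgeR's quasi-likelihood test (13 rose and 17 fell with the offsets), 38 of 81 where 58.3% of all genes were called (28.2% up and 30.1% down), and the median log2 fold change was -0.15. All 4 members of complex II fell, as did 7 of complex I, 5 of complex III, 5 of complex IV and 9 of complex V. The smallest adjusted p belonged to SDHA, with 120.3, 122 and 122 CPM in young TRF2 and 1.75, 2.10 and 1.34 CPM in senescent TRF2 cells (-6.13, SE 0.14, adjusted p = 7.19e-15). ATP5MG moved from 57.1, 43.7 and 53.6 to 12.6, 10.7 and 11.5 CPM (-2.15), UQCR10 from 70.03, 60.1 and 67.5 to 15.3, 11.5 and 12.4 CPM (-2.33) and COX6C from 111, 95.3 and 103 to 42.7, 46.6 and 45.1 CPM (-1.20). NDUFV1 (0.40) and CYC1 (0.40) were again among those that rose, and NDUFS1 (-0.24), UQCRFS1 (-0.40), SDHB (-0.31), ATP5F1A (-0.23) and ATP5F1B (-0.22) among those that fell. With the offsets CYC1 was called lower in place of higher (-0.18, adjusted p = 0.0181), and NDUFV1 (-0.06), SDHB (0.02) and UQCRFS1 (-0.08) were not called. NDUFV1 lost its call without any 1 of the 6 libraries, ATP5F1A without any but young TRF2 replicate 2, ATP5F1B without any but young TRF2 replicate 2 and senescent TRF2 replicate 3, SDHB without young or senescent TRF2 replicate 1 or 3, CYC1 without young TRF2 replicate 2 or senescent TRF2 replicate 2 or 3, and NDUFS1 without senescent TRF2 replicate 2.

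With siLMNB1, 1 nuclear member rose and 9 fell by edgeR's quasi-likelihood test (5 rose and 12 fell with the offsets, 9 rose and 26 fell with only the 6 libraries compared), 10 of 81 where 32.5% of all genes were called (16.4% up and 16.1% down), and the median was -0.06, against 0.04 for all genes. NDUFC2, a membrane-arm subunit of complex I, fell from 8.61, 8.46 and 6.70 to 4.69, 4.24 and 4.59 CPM (-0.82, SE 0.16, adjusted p = 8.74e-04), whereas in senescent empty cells it lay at 9.74, 9.67 and 14.4 CPM and rose (0.51). ATP5F1C, the gamma subunit, fell from 169.6, 163 and 168 to 125, 130.1 and 121 CPM (-0.41, SE 0.08, adjusted p = 0.00141), and NDUFB2, another membrane-arm subunit, from 23.8, 23.99 and 26.3 to 15.5, 12.96 and 14.3 CPM (-0.79, SE 0.17, adjusted p = 0.00212). In each of these 3 genes the siLMNB1 libraries lay wholly below the young empty ones. The share of all genes that lay below in this way is not given. The alpha and beta subunits ATP5F1A (445, 458 and 435 CPM, -0.29, SE 0.09, adjusted p = 0.0212) and ATP5F1B (666, 689.7 and 657 CPM, -0.29, SE 0.08, adjusted p = 0.0143) also fell, but ATP5F1A lost its call without any library but siLMNB1 replicate 2, and ATP5F1B without young empty replicate 1 or siLMNB1 replicate 3. SDHA was not called, at 111, 116 and 117 CPM (-0.13), except with only the 6 libraries compared. NDUFB2 shares 35.9% and NDUFC2 21.0% of its exon bases with other genes, mostly with BRAF on the opposite strand and with the readthrough gene NDUFC2-KCTD14, and their counts are uncertain to that extent. The count fell to 4 to 7 when a library was left out, with 4 without young empty replicate 1, 5 without siLMNB1 replicate 1 and 6 without young empty replicate 3.

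With TRF2 in young cells no nuclear member was called by edgeR's quasi-likelihood test, and 0.177% of all genes were. An unadjusted p below 0.05 was passed by 3 members (2 higher and 1 lower), and DESeq2 called 1. In senescent cells 11.3% of all genes were called with TRF2, and 6.41% were called down. Of the nuclear members, 3 fell there and none rose (2 rose and 6 fell with the offsets). These were NDUFB2, from 26.7, 24.3 and 42.7 to 21.8, 21.9 and 19.5 CPM (-0.57, SE 0.17, adjusted p = 0.0399), COX7A1, from 14.7, 12.1 and 23.3 to 10.4, 10.3 and 9.55 CPM (-0.74, SE 0.18, adjusted p = 0.0149), and ATP5MF, a membrane subunit of ATP synthase, from 19.1, 17.9 and 38.7 to 16.4, 14.04 and 13.3 CPM (-0.79, SE 0.25, adjusted p = 0.0489). For each gene senescent empty replicate 3 was the highest library. None of the 3 falls was called without any 1 of the senescent TRF2 libraries or with only the senescent libraries in the fit, and the count of nuclear members called was 15 without senescent empty replicate 1 and 7 without replicate 2. Without senescent empty replicate 3, 2 rose and 1 fell. At an unadjusted p below 0.05, 1 was higher and 14 lower. The interaction was called for no nuclear member (1 higher and 4 lower at an unadjusted p below 0.05, and 1 by DESeq2) and for 1.13% of all genes.

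Several subunits of complex IV have isoforms with tissue-bound expression. COX4I1, the broadly expressed isoform, lay at 219.7 to 404 CPM over all 15 libraries, and COX4I2, known from lung and for its response to low oxygen, had no count in any library. COX6A1 lay at 6.08 to 11.8 CPM, and COX6A2, the isoform of heart and skeletal muscle, had no count, but shares 38.3% of its exon bases with a long noncoding RNA. COX8A lay at 12.2 to 42.1 CPM, with 35.4% of its exon bases shared with a long noncoding RNA, and COX8C, known from testis, had at most 1 count. A count of 0 allows a level of up to 0.0659 to 0.112 CPM per library (3 counts, counting error only, and not for reads lost to shared exons). COX8A rose in senescent empty against young empty cells (0.60, SE 0.24, adjusted p = 0.0338), and COX4I1 (0.31), COX6A1 (0.05) and COX6B1 (0.11) were not called. COX4I1 was called higher without senescent empty replicate 1 (0.42) or 2 (0.45) and with the offsets (0.42), COX6A1 was called higher with the offsets (0.54), and COX6B1 was called lower without senescent empty replicate 3 (-0.25). The call of COX8A ended without senescent empty replicate 3 (0.20) or without any 1 of the young empty libraries. With the offsets COX8A came to -0.05.

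COX7A1, the isoform of muscle, had a mean of 23.7 CPM per kb of exon in young empty cells and COX7A2 of 86.3 CPM per kb. COX7A1 lay at 12.7, 13.6 and 15.3 CPM in young empty, 13.3, 11.9 and 14.6 CPM in young TRF2, 20.2, 21 and 22.1 CPM in young siLMNB1, 14.7, 12.1 and 23.3 CPM in senescent empty and 10.4, 10.3 and 9.55 CPM in senescent TRF2 libraries. The siLMNB1 libraries were above all other young ones and the senescent TRF2 libraries below all others. It rose with siLMNB1 (0.61, SE 0.17, adjusted p = 0.0132), though not without young empty replicate 1, and was not called in senescent against young empty cells (0.27). That difference was called higher without senescent empty replicate 2 (0.45) and called lower with the offsets (-0.65, adjusted p = 2.35e-05 by edgeR). COX7A2 lay at 136 to 169.7 CPM in the young libraries without siLMNB1, 126 to 136 CPM with siLMNB1 and 87.6 to 135 CPM in the senescent ones, and it fell with siLMNB1 (-0.35), a call that ended when any 1 library was left out. NDUFA4, a subunit of complex IV despite its name, lay at 142 to 203 CPM and was not called in any comparison by edgeR with TMM alone. In senescent against young empty cells it was called lower without senescent empty replicate 3 (-0.23) and called higher with the offsets (0.51, adjusted p = 0.00317), as it was with TRF2 and the offsets (0.35, adjusted p = 0.03), so its direction depended on the offsets. With siLMNB1 and only the 6 libraries compared it was called higher (0.22). Its paralog NDUFA4L2, known as a target of the hypoxia response, lay at 0.741 to 2.36 CPM and was not called with TMM alone either, but was called lower with the offsets in senescent cells with the empty (-1.25) and the TRF2 vector (-1.05).

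COX6B2, the testis isoform of COX6B, was detected on few reads. It had 6, 2 and 4 counts in young empty, none in young TRF2, 1, 0 and 1 in young siLMNB1, 8, 18 and 32 in senescent empty and 40, 39 and 44 in senescent TRF2 libraries. All 6 senescent libraries were above all 9 young ones. Pooled by condition it was 5.11-fold higher in senescent empty than in young empty cells (2.28, SE 0.56, adjusted p = 0.00239), and at least 42.9-fold higher in senescent TRF2 than in young TRF2 cells, against a floor of 3 counts over the young TRF2 group (adjusted p = 2.49e-06 by edgeR). The call with siLMNB1, against 2 counts in that group, ended when young empty replicate 1 or 3 or any siLMNB1 library was left out. COX6B2 shares 29.1% of its exon bases with another protein-coding gene on the same strand. Its main partner COX6B1 lay at 87.04 to 158 CPM.

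The 9 nuclear members that did not pass the filter on low counts were NDUFA7 (at most 7 counts in a library), NDUFV2 (at most 10), COX4I2, COX6A2 and COX7B2 (0), COX8C and NDUFC2-KCTD14 (at most 1), ATP5MF-PTCD1 and ATP5MGL (at most 2). NDUFV2, a core subunit of complex I that every respiring cell needs, shares 28.4% of its exon bases with other genes and NDUFA7 32.5%. Other members stood near 0 in every library although their complexes need them: NDUFA13 at 0.0297 to 1.02 CPM with 21.0% shared, NDUFB8 at 0.279 to 1.17 CPM with 48.5%, ATP5ME at 0.314 to 2.20 CPM with 61.3% and NDUFS7, another core subunit, at 0.558 to 3.73 CPM with 51.4%. These low members were chosen after their values were seen, and the part of exon sharing in their low counts was not tested.

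Genes that build, feed or regulate the complexes were counted in senescent against young empty cells by the same test, where 32.7% of all genes rose and 31.9% fell, or 30.6% and 26.8% with offsets for GC and length. Values of named genes on these lists, here and in the next paragraph, are without the offsets and with all libraries in the fit. Whether their calls hold otherwise is not given. Of 50 tested assembly factors 12 rose and 16 fell (19 and 11 with the offsets), among them COX15, which makes heme a for complex IV (-1.35), COA1 (-0.74) and ATP5IF1, the inhibitor of ATP synthase (1.12). Of 26 electron carriers and inner membrane carriers 5 rose and 14 fell (6 and 8 with the offsets), among them CYCS, which encodes cytochrome c, from 209, 213 and 216 to 127, 126 and 139 CPM (-0.70), and the ubiquinone synthesis genes COQ2 (-1.07) and COQ3 (-1.51). Of 19 genes of the TCA cycle 5 rose and 9 fell (4 and 4 with the offsets), among them FH, which hydrates fumarate made by complex II, from 98.8, 90.8 and 94.8 to 39.1, 36.7 and 43.7 CPM (-1.25), CS (-0.69) and SUCLG2 (-0.73). Of 22 glycolysis genes 7 rose and 8 fell (2 and 9 with the offsets), with SLC16A3, a lactate exporter, at 1.30. LDHB (-8.96) and ALDOA (-8.81) lay at 0.798 to 1.91 and 1.60 to 3.44 CPM in the senescent libraries and share exons with later annotated genes as SDHA does.

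Of 17 genes of mitochondrial transcription and replication 4 rose and 8 fell (4 and 3 with the offsets): POLRMT, the mitochondrial RNA polymerase, rose (1.17), POLG rose (0.58) and TFAM, which packages and transcribes mitochondrial DNA, fell from 35.98, 35.9 and 39 to 20.04, 20.6 and 13.96 CPM (-1.02, SE 0.13, adjusted p = 2.79e-06). With siLMNB1 TFAM lay at 46.1, 51.4 and 43.6 CPM and rose (0.35, SE 0.12, adjusted p = 0.0384). Of 20 genes of mitochondrial RNA processing and stability 3 rose and 14 fell in senescent empty cells (3 and 5 with the offsets), among them PNPT1, which degrades mitochondrial RNA, from 36.99, 33.6 and 32.9 to 15.6, 12.6 and 12.4 CPM (-1.35), TRNT1 (-1.02) and MTPAP, the mitochondrial poly(A) polymerase (-0.78). Of 17 regulators of respiratory genes 2 rose and 6 fell (2 and 5 with the offsets), with GABPB1, a partner of the ETS factor GABPA, at -1.29 and ESRRA at 1.04. PPARGC1A, the coactivator PGC-1alpha, lay at 1.10 to 2.34 CPM in all libraries and was not called (-0.01). Of 78 mitochondrial ribosomal protein genes 15 rose and 35 fell (median -0.10, and 13 and 27 with the offsets), and of 83 cytosolic ones 10 rose and 31 fell (median -0.21, and 10 and 28 with the offsets). The nuclear members, with 17 up and 25 down of 81, may be read beside these counts, and the differences between lists were not tested. With siLMNB1, where 16.4% of all genes rose and 16.1% fell, 2 of 22 glycolysis genes rose and 11 fell, 3 of 26 carriers rose and 10 fell, and 1 of 19 TCA cycle genes rose and 7 fell. Of 50 assembly factors 6 rose and 9 fell, and of 78 mitochondrial ribosomal protein genes none rose and 14 fell (2 and 18 with the offsets). Both shares of falls were near that of all genes, whereas the mitochondrial ribosomal protein genes had fewer rises.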

How the data were processed

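RNA-seq was analysed from the deposited table of counts per gene (counts, not normalized) for 15 libraries. The authors trimmed reads with Trimmomatic, mapped them to GRCh38 and counted them with STAR, which keeps a read only where it maps once and to a single gene. The annotation release, strand setting and RNA selection are not given in the sources used here. Groups were taken from the labels. In edgeR 4.0.16 (R 4.3.3, limma 3.58.1), genes were filtered with filterByExpr, normalized by TMM and fitted in 1 quasi-likelihood model of all libraries, and 6 comparisons were tested with Benjamini-Hochberg adjustment over 15799 genes. A call is an adjusted p below 0.05, and a DEG also passes a log2 fold change of 1 (0.58 for siLMNB1). CPM use TMM library sizes. SE is the absolute log2 fold change divided by the square root of the quasi-likelihood F statistic, an approximate standard error. Overlaps, lengths and GC content came from GENCODE 44 (GRCh38), which may differ from the annotation used for counting. Offsets were loess fits (span 0.3) of each library on GC content and length. Tests were tried on simulated data with the same spread in all groups, which cannot check them where groups differ in spread. Python 3.11.15, pandas 2.3.3, numpy 2.4.6 and matplotlib 3.10.9 were used.

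Total counts of 26725885 to 43116046 per library set the precision, and limits from a count of 0 cover counting error only. The named genes were all mitochondrial members, SDHA to SDHD, isoform pairs, core subunits, the largest rise and fall per complex, up to 5 members with the smallest adjusted p in each other comparison, all untested members and up to 3 genes per gene list. Members and lists were chosen with earlier results of these data known. The 10 kinds of alternative included DESeq2 1.42.0, other filters and normalizations, only the libraries compared, a replicate block and each library left out. Another 2 were added after seeing the data.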

Additional observations from a re-analysis of the deposited data

Results flagged for a closer look

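The difference between senescent and young cells differed between the vectors for 7 mitochondrial members by the interaction term in edgeR. The interaction on the log2 scale was -1.60 for MT-ND1, -1.44 for MT-ND2, -1.68 for MT-ND4, -1.60 for MT-ND5, -1.60 for MT-ND6, -1.41 for MT-CYB and -1.51 for MT-ATP6, with adjusted p from 0.0282 for MT-ND4 to 0.046 for MT-ND2. Each value is the fold change with TRF2 minus that with the empty vector. None of these calls held with only the libraries compared, and leaving out 1 library gave 0 to 12 calls.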

How the results depend on the processing

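Counts of members called are given in the order senescent versus young with the empty vector, senescent versus young with TRF2, siLMNB1, TRF2 in young cells, TRF2 in senescent cells and interaction. Leaving out 1 library gave 33 to 49, 27 to 38, 4 to 7, 0 to 0, 0 to 15 and 0 to 2 nuclear members and 10 to 13, 1 to 2, 2 to 11, 0 to 0, 3 to 12 and 0 to 12 mitochondrial members. In no 2 conditions that were compared did all same-numbered libraries deviate together by a correlation over 0.1 (range -0.30 to 0.37 over all but 1 pair of conditions). In young siLMNB1 and senescent empty cells, which were not compared, all 3 did (0.22, 0.37 and 0.53). The labels name no shared batch, so the numbers were not taken as pairs, and a replicate block gave 42, 40, 11, 0, 3 and 0 nuclear and 11, 3, 10, 0, 10 and 7 mitochondrial members.

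Counts that moved by over 1.5 times were as follows. With only the libraries compared there were 27 nuclear members for senescent versus young with the empty vector, 8 mitochondrial members with TRF2 (1 up and 7 down), 35 nuclear members for siLMNB1, 1 nuclear and 2 mitochondrial members (all up) for TRF2 in young cells, 0 and 0 in senescent cells and 0 mitochondrial members for the interaction. With only genes that overlap no other gene there were 21, 20, 6 and 1 nuclear members (both senescence comparisons, siLMNB1 and TRF2 in senescent cells) and 1 and 7 mitochondrial members (senescence with TRF2 and siLMNB1). The fold threshold left 9, 5, 4 and 0 nuclear members in these same comparisons and 0 and 5 mitochondrial members (senescence with TRF2 and TRF2 in senescent cells). Without a filter there were 9 mitochondrial members for senescence with TRF2 (1 up and 8 down), 1 nuclear and 10 mitochondrial (all 10 up) for TRF2 in young cells, 11 nuclear for TRF2 in senescent cells, and 4 nuclear and 13 mitochondrial for the interaction. Offsets gave 17 nuclear members for siLMNB1, 8 for TRF2 in senescent cells and 1 for the interaction, and offsets with the block 19, 9 and 1. DESeq2 called 1 nuclear member for TRF2 in young cells. DESeq2's test, its size factors, library sizes without mitochondrial genes and the exclusion of genes overlapping a later annotated gene each gave 1 nuclear member for the interaction.

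Signs turned for senescent versus young cells with the empty vector without senescent empty replicate 3 in COX6B1 (-0.25, with leave-one-out values up to 0.25). With offsets (and with the block in addition) they turned in COX7A1 (-0.65 and -0.66), COX8A (-0.053 and -0.0573), CYC1 (-0.26 and -0.26), NDUFA4 (0.51 and 0.49), NDUFS1 (0.0968 and 0.0943), NDUFV1 (-0.015 and -0.0223) and UQCRFS1 (0.0883 and 0.0827). With TRF2 they turned in CYC1 (-0.18 and -0.18), NDUFA4 (0.35 and 0.36), NDUFV1 (-0.0577 and -0.0573) and SDHB (0.0232 and 0.024). The cause was not tested. Signs were compared only where the main or the alternative fit called the gene, so turns in genes called in neither are not listed. For named genes over all alternatives, 3180 values kept their side of the threshold, and also their sign where called. Another 242 lost and 106 gained a call with the sign kept.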
